A study of Mus musculus with 24 samples.

Results

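The 6 genes described here encode secreted proteins of the extracellular matrix: Sparc, Lama1, Lamb1, Lamc1, Col4a1 and Fn1. They were chosen by name as matrix mRNAs of which several had fewer reads in TET2 CLIP than in its input, so they are 6 of the 53900 features of the CLIP and RIP count tables, and their change in TET2 CLIP is given as a description. Where counts of calls in that contrast are printed, they stand beside those of the whole table and nothing is read from them. Mouse embryonic stem cells were grown on gelatin with LIF and the inhibitors PD0325901 (1 µM) and CHIR99021 (3 µM). In CLIP (crosslinking and immunoprecipitation, a readout of the RNA bound to a protein), E14 cells with the allele Tet2HA-His received 500 µM 4SU, a crosslinkable uridine analogue, for 4 h and then 400 mJ/cm2 of UVB. TET2 CLIP and input were sequenced in 2 biological replicates for each of clones 65 and 75, and each clone is a single tagged line. All 8 CLIP libraries therefore share the tag, 4SU and UVB, and CLIP from untagged cells was not analysed here. In RIP (immunoprecipitation of RNA with an antibody, here against the modified base hm5C, hydroxymethylcytidine), untreated cells of strain B6;129 gave 2 hm5C RIP and 2 input libraries made with a small RNA kit. The 12 small RNA libraries of the series were counted over tRNA fragments and hold no value for these genes.

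Basement membranes are thin matrix sheets that line epithelia and are laid down very early in the mouse embryo. Laminins, trimers of an α, a β and a γ chain, self-assemble at the cell surface, and the chains encoded by Lama1, Lamb1 and Lamc1 form the laminin that dominates in early embryos. Type IV collagen, whose common form joins chains encoded by Col4a1 and Col4a2, makes a second network that nidogens and perlecan link to the laminin one. Sparc encodes a collagen-binding matricellular protein, and Fn1 encodes fibronectin, an integrin ligand that cells assemble into fibrils. All of these mRNAs are translated at the endoplasmic reticulum (ER), which their proteins enter before secretion.

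Per the RefSeq table for GRCm38.p6, the assembly of mm10, all 6 are protein-coding genes. Sparc (ENSMUSG00000018593) spans chr11:55394159-55420080. Lama1 (ENSMUSG00000032796) spans chr17:67697127-67822645, Lamb1 (ENSMUSG00000002900) chr12:31265146-31329644 and Lamc1 (ENSMUSG00000026478) chr1:153218922-153332786. Col4a1 (ENSMUSG00000031502) spans chr8:11198423-11312889, and Fn1 (ENSMUSG00000026193) lies on the same chromosome as Lamc1, at chr1:71585473-71653280. Col4a1 is transcribed from the minus strand, away from its partner Col4a2 (ENSMUSG00000031503) on the plus strand at chr8:11312805-11449287, and the annotated intervals of this pair share 85 bases. The 30 bases at chr8:11312801-11312830 are shown, on the strand of each gene, because a read there could be counted for either gene when strand is not used. Capitals mark the 22 bases from the start of Col4a2 at base 11312805 to the start of Col4a1 at base 11312826 in the RefSeq promoter table for that assembly. The interval of Col4a1 given above reaches further, to base 11312889, so the capitals are only part of the 85 shared bases.
Col4a1: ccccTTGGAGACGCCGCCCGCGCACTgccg
Col4a2: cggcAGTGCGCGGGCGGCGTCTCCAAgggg

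The whole count tables set the precision. Inputs of the CLIP part held 913002 to 4729463 counts and TET2 CLIP libraries 221060 to 453944, so that 3 counts in a TET2 CLIP library correspond to 6.75 to 16.6 CPM (counts per 1000000 counts of a library, whose size is first multiplied by its TMM factor, a correction for composition). In all 8, the feature with the most counts was Gm26917, at 17.6% to 34.3%. Markers of the labelled cell type were present: 19 listed pluripotency genes summed to 2857 to 3483 CPM in the inputs and 2624 to 3667 CPM in TET2 CLIP, with Pou5f1, Sox2 and Nanog detected in all 8 libraries. Several of the 6 genes also mark extraembryonic endoderm or fibroblasts. The 15 other listed endoderm markers summed to 40.7 to 67.4 CPM in the inputs and 38.3 to 77.4 CPM in TET2 CLIP, with Gata4 and Gata6 at no more than 18 and 6 counts. The 11 other fibroblast markers summed to 14.5 to 25.8 and 3.98 to 51.4 CPM, with Col3a1 at no more than 2 counts. In replicate 2 of the clone 65 input, the 2 lists held 241 and 138 counts, of which Sox17 gave 34 and Col1a1 10. Most of these counts came from listed markers not named here. The part of such cells in the results below was not tested.

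Sparc, Lama1, Lamc1 and Fn1 mRNA each had lower CPM in TET2 CLIP than in input in both clones, with means over the clones of 44.2% to 72.9% of input. On this scaling Lamb1 was below input in clone 75 alone, and Col4a1 was above input in 1 library of each clone. Summed over the 6 genes, reads made up 0.309% and 0.313% of all counts in the inputs of clone 65 and 0.176% and 0.184% in its TET2 CLIP libraries. In clone 75 the share was 0.194% and 0.217% in the inputs against 0.135% and 0.157% in TET2 CLIP. These shares are not scaled by TMM, and the exact (Clopper-Pearson) 95% intervals of input and TET2 CLIP did not overlap within a clone. The intervals cover counting error only, and the genes were chosen on this contrast, so nothing is read from the lack of overlap. Fn1 and Lamc1 supplied 86.7% to 91.2% of these reads in every CLIP library. Transcript lengths were not analysed here, so levels are not ranked between genes.

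Of the 6, Sparc had the lowest level in TET2 CLIP relative to input. It had 94.1 and 93.0 CPM in the 2 inputs of clone 65 and 60.8 and 36.0 CPM in its TET2 CLIP libraries. In clone 75 it had 105 and 123 CPM in the inputs and 49.5 and 35.8 CPM in TET2 CLIP. Every TET2 CLIP library lay below every input, although the TET2 CLIP values rest on 7 to 22 reads each. The mean was 104 ± 13.9 CPM (SD, n = 4) in input and 45.5 ± 12.0 CPM (SD, n = 4) in TET2 CLIP. The log2 change was -1.18 (SE 0.22) over both clones, -0.96 (SE 0.35) in clone 65 and -1.39 (SE 0.27) in clone 75.

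Among the laminin chains, Lama1, which encodes the α1 chain whose globular end binds cell-surface receptors, also had fewer reads in TET2 CLIP. It had 164 and 144 CPM in the inputs of clone 65 and 122 and 72.0 CPM in its TET2 CLIP libraries. In clone 75 the inputs held 137 and 129 CPM and TET2 CLIP 56.3 and 75.7 CPM. The groups did not overlap, but the higher TET2 CLIP library of clone 65 came close to the lowest input. The log2 change was -0.86 (SE 0.18) over both clones, with -0.67 (SE 0.26) in clone 65 and -1.05 (SE 0.25) in clone 75.

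Lamb1, which encodes the β1 chain, had the largest difference between clones of the 3 laminin genes. In clone 65 it had 34.2 and 35.5 CPM in input and 38.7 and 36.0 CPM in TET2 CLIP. In clone 75 it had 27.7 and 48.8 CPM in input but 20.3 and 11.9 CPM in TET2 CLIP. Both TET2 CLIP libraries of clone 65 thus lay just above its inputs and both of clone 75 below theirs, on 3 to 9 reads per TET2 CLIP library. The log2 change was 0.09 (SE 0.47) in clone 65, -1.29 (SE 0.46) in clone 75 and -0.60 (SE 0.33) over both. The value in clone 65 kept its sign under 8 of 15 alternatives. With libraries scaled by total count alone it was -0.32, beside a median of -0.45 over all tested features.

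Lamc1 encodes the γ1 chain, which is shared by most laminins and carries the nidogen-binding site. Inputs of clone 65 held 658 and 664 CPM, and TET2 CLIP 553 and 504 CPM. Inputs of clone 75 held 700.1 and 706 CPM, and TET2 CLIP 448 and 494 CPM. All 4 TET2 CLIP libraries lay below all 4 inputs, with 98 to 199 reads in each. The change was smaller than for Sparc and Lama1, at a log2 of -0.46 (SE 0.12) over both clones, -0.32 (SE 0.17) in clone 65 and -0.59 (SE 0.17) in clone 75.

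Fn1 gave the most reads of the 6, with 236 to 353 in each TET2 CLIP library. In clone 65 it had 1882 and 1771 CPM in input and 1372 and 1424 CPM in TET2 CLIP. In clone 75 it had 1350.2 and 1344 CPM in input and 794 and 939.8 CPM in TET2 CLIP. Within each clone TET2 CLIP lay below input, but both TET2 CLIP libraries of clone 65 lay above both inputs of clone 75. The log2 change was -0.51 (SE 0.12) over both clones, -0.39 (SE 0.17) in clone 65 and -0.64 (SE 0.17) in clone 75.

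Col4a1, which encodes the α1 chain of type IV collagen, did not share this pattern. It had 5.28 and 5.86 CPM in the inputs of clone 65, with 5.53 and 41.1 CPM in TET2 CLIP. In clone 75 it had 13.2 and 13.9 CPM in input and 9.002 and 31.9 CPM in TET2 CLIP. One TET2 CLIP library of each clone stood above its inputs and the other at or below them, on 1, 8, 4 and 8 reads. For clone 65, the single read of replicate 1 allows 0.115 to 25.2 CPM (before the TMM factor) and the 8 reads of replicate 2 allow 15.5 to 70.6 (exact 95% intervals), which overlap. The log2 change of 1.21 (SE 0.49) over both clones fell to -0.02 without replicate 2 of clone 65 and to 0.65 without replicate 2 of clone 75. Within clone 65 the log2 change of 2.07 (SE 0.78) became -0.25 without that library. Within clone 75 it was 0.35 (SE 0.63), and it ran from -0.65 without replicate 2 of that clone's TET2 CLIP to 1.11 without replicate 1.

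**Figure D1:**
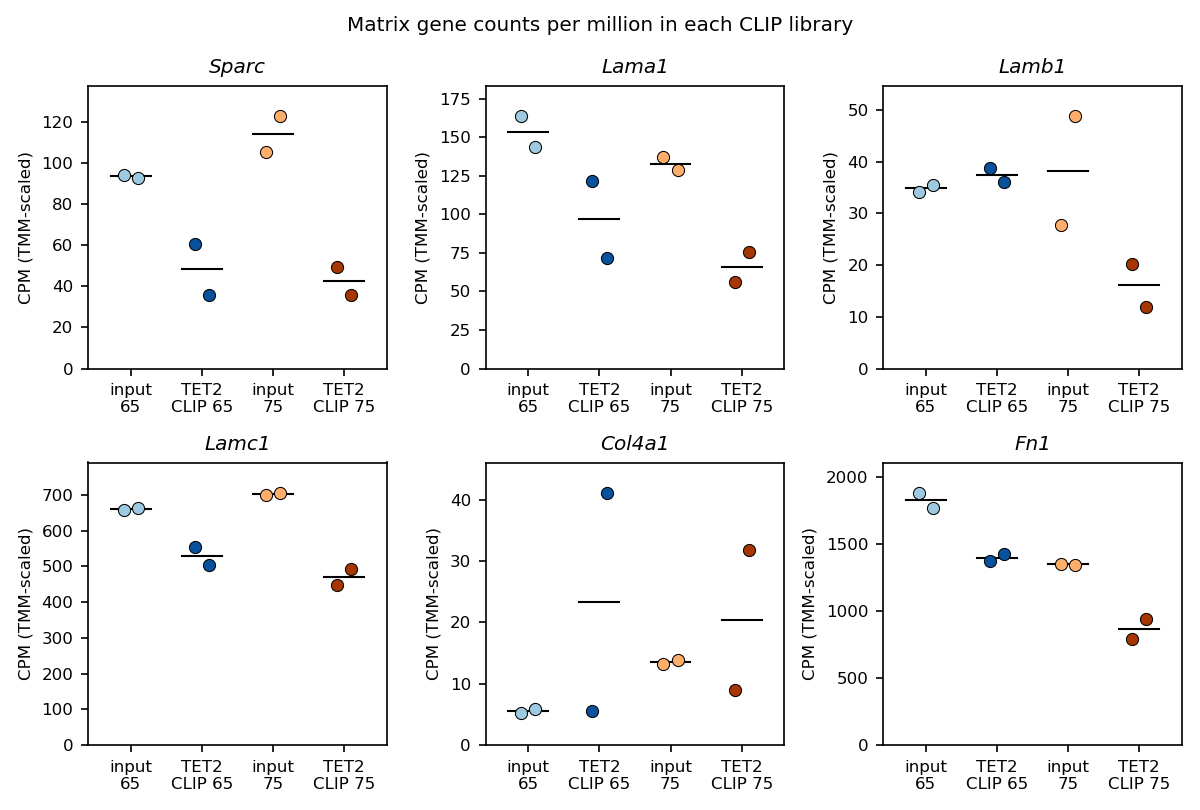
CPM (scaled by library size and TMM factor) of the 6 matrix genes in each of the 8 CLIP libraries, by clone, on axes that start at 0. Points are libraries and lines are means of 2. TET2 CLIP lies below input in both clones for Sparc, Lama1, Lamc1 and Fn1, while on this scale Lamb1 does so in clone 75 alone and Col4a1 splits by replicate.

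All 6 genes passed the filter on low counts, set at 14.63 CPM (before the TMM factor) in at least 2 libraries. Sparc, Lama1, Lamb1, Lamc1 and Fn1 reached it in all 4 inputs, but Col4a1 reached it in none of the inputs and in 2 TET2 CLIP libraries, so that its entry depended on the libraries in which it was high. Over both clones, edgeR's quasi-likelihood test called Sparc, Lama1, Lamc1 and Fn1 lower and none of the 6 higher, against 5.83% of 10334 tested features lower and 8.99% higher. TET2 CLIP lay below input with no overlap for Sparc, Lama1 and Lamc1 and above it for none of the 6, as it did for 7.56% and 8.58% of all tested features. Nothing is read from these counts, because the genes were chosen on this contrast. In rank order of the log2 change, 4.94% of tested features were lower than Sparc, 8.80% lower than Lama1, 15.4% lower than Lamb1, 18.4% lower than Fn1 and 21.3% lower than Lamc1, whereas 92.1% were lower than Col4a1. The median log2 change was -0.56 over the 6 genes and -0.03 over all tested features.

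**Figure D2:**
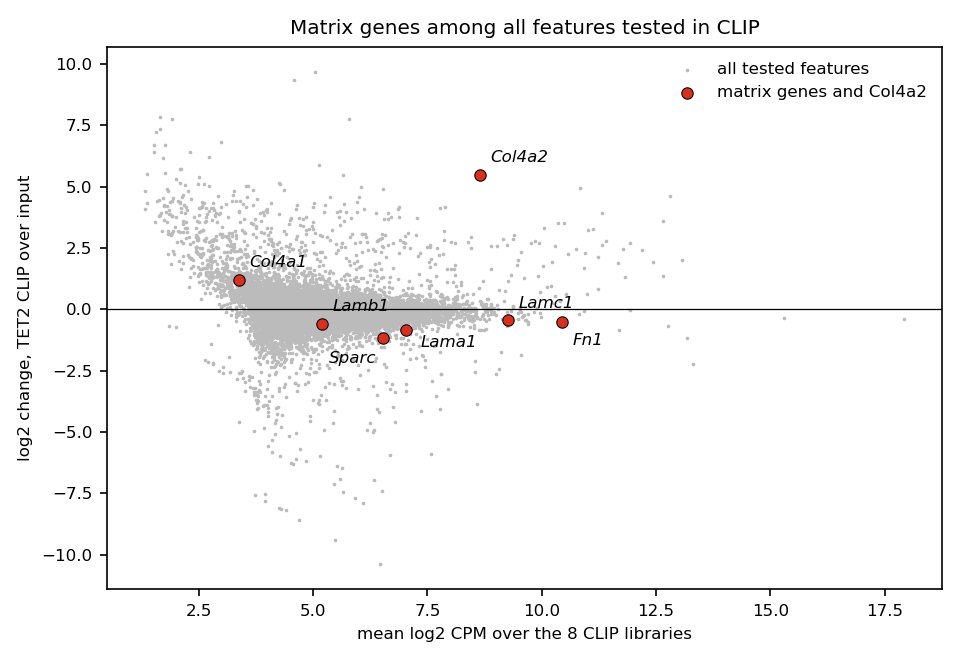
Log2 change in TET2 CLIP over input (both clones) against the mean log2 CPM over the 8 CLIP libraries, for all 10334 tested features (grey) and for the 6 matrix genes and Col4a2 (red). Sparc, Lama1, Lamb1, Lamc1 and Fn1 lie between -1.18 and -0.46, Col4a1 at 1.21 among the features with few reads, and Col4a2 at 5.49.

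Col4a2, which encodes the α2 chain that assembles with the product of Col4a1, is not one of the 6 genes but lies beside Col4a1. It had 21.4 and 16.8 CPM in the inputs of clone 65 and 2041 and 1563 CPM in its TET2 CLIP libraries. In clone 75 it had 30.3 and 36.8 CPM in input and 632 and 864 CPM in TET2 CLIP. All 4 TET2 CLIP libraries stood far above all inputs. The log2 change of Col4a2 was 5.49 (SE 0.15, edgeR adjusted p = 6.58e-22) over both clones, higher than in 99.8% of tested features. The position of the Col4a2 reads within the gene is not given by counts, and whether any of the reads assigned to Col4a1 came from the bases the genes share was not tested.

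Each clone was then taken alone. In clone 65, edgeR called none of the 6 genes, where it called 2.87% of all features lower and 8.21% higher. At an unadjusted p under 0.05, 3 of the 6 were lower and 1, Col4a1, was higher, beside 2335 of 10334 features in either direction. DESeq2 called 1 of the 6 lower, Fn1, beside 189 features lower and 933 higher. In clone 75 edgeR called 4 of the 6 lower, where it called 3.93% of all features lower and 6.22% higher. These libraries are the ones on which the genes were chosen, so nothing is read from these counts or from their difference between the clones. The median log2 change of the 6 genes was -0.35 in clone 65 and -0.85 in clone 75, beside -0.04 and 0.05 over all tested features. TET2 CLIP lay below input without overlap for 4 of the 6 genes in clone 65 and for 5 in clone 75, where 30.7% and 23.9% of all tested features did. It lay above input without overlap for Lamb1 in clone 65 and for none in clone 75, beside 23.6% and 26.9% of all features.

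The difference between the clones (clone 75 minus clone 65) was tested as an interaction. This contrast is not the mean change on which the genes were chosen, but it uses the same libraries. It is therefore not independent of that choice. The difference was negative for all 6 genes, with a median of -0.41 beside 0.02 over all tested features. None of the 6 was called by edgeR, by an unadjusted p under 0.05 or by DESeq2. In the table as a whole 2.22% of features were called lower and 0.329% higher, and 1575 of 10334 had an unadjusted p under 0.05. Lamb1 had a difference of -1.38 (SE 0.70, 95% interval -2.81 to 0.04, adjusted p = 0.351), and Col4a1 of -1.73 (SE 0.94, -3.64 to 0.19, adjusted p = 0.392). The Col4a1 difference turned to 0.47 without replicate 2 of clone 65's TET2 CLIP. Sparc differed by -0.43 (SE 0.49, -1.44 to 0.58, adjusted p = 0.731) and Lama1 by -0.38 (SE 0.39, -1.18 to 0.42, adjusted p = 0.698). Lamc1 and Fn1 had the narrowest intervals, with differences of -0.26 (SE 0.24, -0.75 to 0.23, adjusted p = 0.657) and -0.26 (SE 0.24, -0.75 to 0.24, adjusted p = 0.668). These intervals still allow a change in clone 75 that is well below that in clone 65, and also one above it. With libraries scaled by total count alone, the sign for Sparc, Lama1, Lamc1 and Fn1 turned positive, with the median of all features then at 0.60. Col4a2 was the exception among the genes named so far, with a change 2.17 lower on the log2 scale in clone 75 (log2 difference -2.17, SE 0.31, adjusted p = 4.44e-05), although TET2 CLIP exceeded input in both clones.

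**Figure D3:**
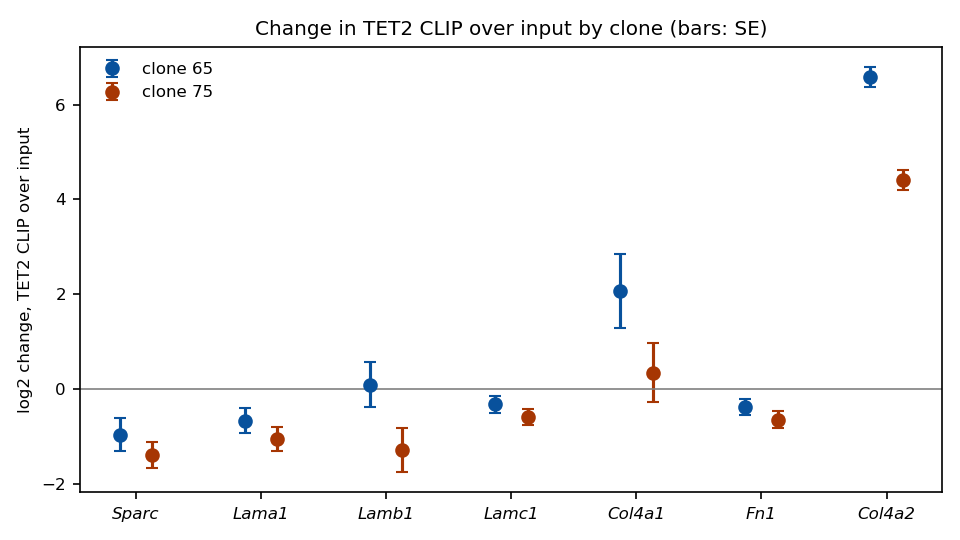
Log2 change in TET2 CLIP over input in clone 65 (blue) and clone 75 (orange-brown) for the 6 matrix genes and Col4a2, with bars of 1 SE from the edgeR fit. Sparc, Lama1, Lamc1 and Fn1 lie below 0 in both clones, Lamb1 in clone 75 alone, and the bars of Col4a1 are the widest. With libraries scaled by total count alone Lamb1 lies below 0 in both, where the median of all features in clone 65 is -0.45.

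The inputs show how the mRNAs themselves stood in the 2 clones, and cell type markers are given first. The listed pluripotency markers summed to 3387 and 3483 CPM in the inputs of clone 65 and to 2857 and 2942 CPM in those of clone 75, where 14 of 17 tested ones had a log2 difference below 0 and 3 were called lower by edgeR. The other endoderm markers summed to 40.7 and 44.1 CPM in clone 65 and to 51.4 and 67.4 CPM in clone 75, and the other fibroblast markers to 25.8 and 25.3 against 14.5 and 23.4 CPM. The part of these differences in the values below was not tested. edgeR called none of the 6 genes different between the inputs of clone 75 and clone 65, where 5% of all tested features were called higher and 1.9% lower. Unadjusted, its p was under 0.05 for Sparc, Col4a1 and Fn1, as it was for 1781 of 10334 tested features. DESeq2 called 1 of the 6 genes, Fn1, lower, beside 264 features higher and 64 lower. Col4a1 was higher in clone 75 in both libraries, by a log2 of 1.27 (SE 0.43, 95% interval 0.39 to 2.15, adjusted p = 0.0771). Fn1 was lower in clone 75 in both, by a log2 of -0.44 (SE 0.16, -0.77 to -0.11, adjusted p = 0.115). Both passed the threshold when the 4 input libraries were fitted alone, Col4a1 with an adjusted p of 0.00389 and Fn1 with 0.000196 (edgeR), and DESeq2 gave Fn1 an adjusted p of 0.000792 but Col4a1 one of 0.564. Without any 1 input the adjusted p of Col4a1 was 0.419 to 1 (edgeR). The choice of fit sets the call of both genes.

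Sparc was also higher in both inputs of clone 75, with a log2 difference of 0.32 (SE 0.14, adjusted p = 0.193). Lama1 was lower in both, at -0.22 (SE 0.13, adjusted p = 0.442), and Lamc1 differed by 0.09 (SE 0.15, adjusted p = 0.832). For Lamb1 the inputs of clone 75 fell on either side of those of clone 65 (0.27, SE 0.22, adjusted p = 0.606). Values of clone 75 lay above clone 65 without overlap for Sparc, Lamc1 and Col4a1 and below for Lama1 and Fn1, patterns that 28.4% and 25.9% of all tested features showed. In such bulk samples, fewer cells that express a gene and less RNA per cell cannot be told apart. Col4a2 rose in the input of clone 75 (log2 0.88, SE 0.25, edgeR adjusted p = 0.0278), a call that was lost without any 1 of the 4 inputs, with log2 differences of 0.68 to 1.03. It was also lost with DESeq2's test (adjusted p = 0.112), with scaling by total count alone (log2 0.53, adjusted p = 0.135), with no count filter (adjusted p = 0.0941) and with the replicate number as a block shared by the clones (adjusted p = 0.0575). The interaction above uses the same inputs, so that the 2 comparisons are not independent.

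Over the 8 CLIP libraries the levels of the 6 genes followed one another in part. Pearson correlations of log2(CPM + 1) were 0.92 between Sparc and Lamc1, 0.92 between Lama1 and Lamc1 and 0.83 between Sparc and Lama1, and Col4a1 correlated negatively with each of the other 5, from -0.60 to -0.37. These are descriptions over 8 libraries that fall into input and TET2 CLIP, which the genes were chosen to separate, and they share depth with that split. The features outside the 6 whose log2(CPM + 1) followed the mean standardised level of the 6 most closely were Fes (r = 0.98), Abhd12 (r = 0.98), Ing2 (r = 0.97), Snord17 (r = 0.97) and Gm6135 (r = 0.97), each over 8 libraries. Their log2 changes in TET2 CLIP ran from -6.49 for Fes to -1.10 for Abhd12. Fes and Gm6135 each had a mean of 2.67 CPM in TET2 CLIP and at most 5.53 CPM in a library. That is below the 6.75 to 16.6 CPM that 3 counts correspond to, so the size of their changes is poorly set.

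Other genes of matrix biology were taken from lists and tested over the whole table, in which 5.83% of features were lower and 8.99% higher over both clones. The lists were chosen with earlier results of these data known, so the calls of listed genes are given as descriptions. Of 3 other laminin chains that could be tested, Lama5, encoding the α5 chain, was lower in TET2 CLIP, with 514 CPM in input and 293 CPM in TET2 CLIP on average (log2 -0.80, SE 0.12, edgeR adjusted p = 8.77e-06). Lamb2, encoding the β2 chain, had a log2 change of -0.55 (SE 0.28, adjusted p = 0.206). Of 8 tested genes among 16 of other basement membrane proteins, 4 were lower and 1 was higher, with a median log2 change of -0.48. The 4 were those with the most reads: Hspg2, which encodes perlecan (-0.69, adjusted p = 0.000141), Agrn, which encodes agrin (-0.41, adjusted p = 0.0185), and the nidogen genes Nid1 (-0.50, adjusted p = 0.00891) and Nid2 (-0.83, adjusted p = 5.88e-06). The 1 higher was Fras1, chosen after its value was seen, from 3.5 CPM in input to 28.8 CPM (log2 2.44, adjusted p = 0.00624), a call that was lost without any 1 of the 4 inputs or without replicate 1 of clone 75's TET2 CLIP. Fras1 reached the count filter in none of the 4 inputs and in 2 of 4 TET2 CLIP libraries, so that, as for Col4a1, its test depended on the libraries in which it was high.

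Genes that act on collagens and other matrix proteins in the ER gave 2 lower of 12 tested. P4ha1, which encodes a catalytic subunit of collagen prolyl 4-hydroxylase, had 226 CPM in input and 47.1 CPM in TET2 CLIP (log2 -2.35, SE 0.21, edgeR adjusted p = 3.07e-10). Colgalt1, which encodes a collagen galactosyltransferase, was lower by a smaller amount (-0.62, adjusted p = 0.0494), and DESeq2 called 1 of the 12. P4hb, encoding the subunit that pairs with the product of P4ha1, had a log2 change of -0.13 (adjusted p = 0.593). None of 5 tested genes of interstitial matrix was called by edgeR, among them Vcan (-0.07, adjusted p = 0.839), Fbln1 (-0.72, adjusted p = 0.0908) and Col5a1 (0.54, adjusted p = 0.435), and none of 6 tested matrix proteases and inhibitors.

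Of 15 tested receptors for laminin, fibronectin and other matrix proteins, 3 were lower and 1 was higher, with a median of -0.16. Itga5, which encodes the α subunit of the classical fibronectin receptor, was lower (-0.68, edgeR adjusted p = 0.0192), as were Bcam, encoding a laminin receptor (-0.93, adjusted p = 0.00647), and Itga9, encoding another integrin α subunit (-3.03, adjusted p = 5.95e-06), 3 genes named after their values were seen. Sdc4, encoding a syndecan, was higher (0.52, adjusted p = 0.0155), a call that was lost with DESeq2's test, with no count filter and with scaling by total count alone. Dag1, encoding dystroglycan, and Itga6, a laminin-binding integrin subunit, had changes of -0.26 (adjusted p = 0.176) and -0.31 (adjusted p = 0.19).

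Genes of ER entry and folding, which serve all secreted proteins, had a median log2 change of -0.01 over 20 tested, with 2 lower and 1 higher. Named after their values were seen, these were the chaperone gene Hyou1 (-0.73, edgeR adjusted p = 0.00101) and Srpr, encoding a subunit of the signal recognition particle receptor (-0.77, adjusted p = 0.0365), and, higher, Srp54a, encoding a protein of that particle (3.38, adjusted p = 1.15e-10), which reached the count filter in 1 of 4 inputs and in all 4 TET2 CLIP libraries. By clone, the median of this list was 0.27 in clone 65, with 6 higher and 0 lower, and -0.28 in clone 75, with 1 higher and 2 lower. The difference between clones was below 0 for 18 of the 20, 2 of which edgeR called, with a median of -0.60 beside 0.02 over all features and -0.41 over the 6 matrix genes. With libraries scaled by total count alone it was below 0 for 10 of the 20 and 1 was called, with a median of -0.03 beside 0.60 over all features. The median of the list in clone 65 then turned to -0.14, beside -0.45 over all features. The chaperone genes Hspa5 and Calr had changes of 0.00 (adjusted p = 0.99) and 0.31 (adjusted p = 0.0784), and Canx and Ssr1 0.28 (adjusted p = 0.1) and 0.12 (adjusted p = 0.642, all from edgeR). Of 17 other secreted proteins of embryonic stem cells, 5 were lower and 1 was higher. Igfbp2, encoding a binding protein of insulin-like growth factors, had 331 CPM in input and 161 CPM in TET2 CLIP (-1.02, adjusted p = 1.69e-06), and the ligand gene Nodal rose from 243 to 364 CPM (0.55, adjusted p = 0.00618). The other 4 lower, named after their values were seen, were Cst3 (-0.90, edgeR adjusted p = 0.048), Grn (-0.78, adjusted p = 0.00166), Psap (-0.69, adjusted p = 0.0145) and Ctsb (-0.53, adjusted p = 0.0438), which encode secreted or lysosomal proteins. Fgf4 and Apoe had changes of 0.19 (adjusted p = 0.322) and -0.29 (adjusted p = 0.124). The medians of these lists, from -0.55 to 0.28, stand beside -0.03 for all tested features. The list of collagen IV chains is not in that range, as its 1 tested gene outside the 6, Col4a2, stood at 5.49.

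**Figure D4:**
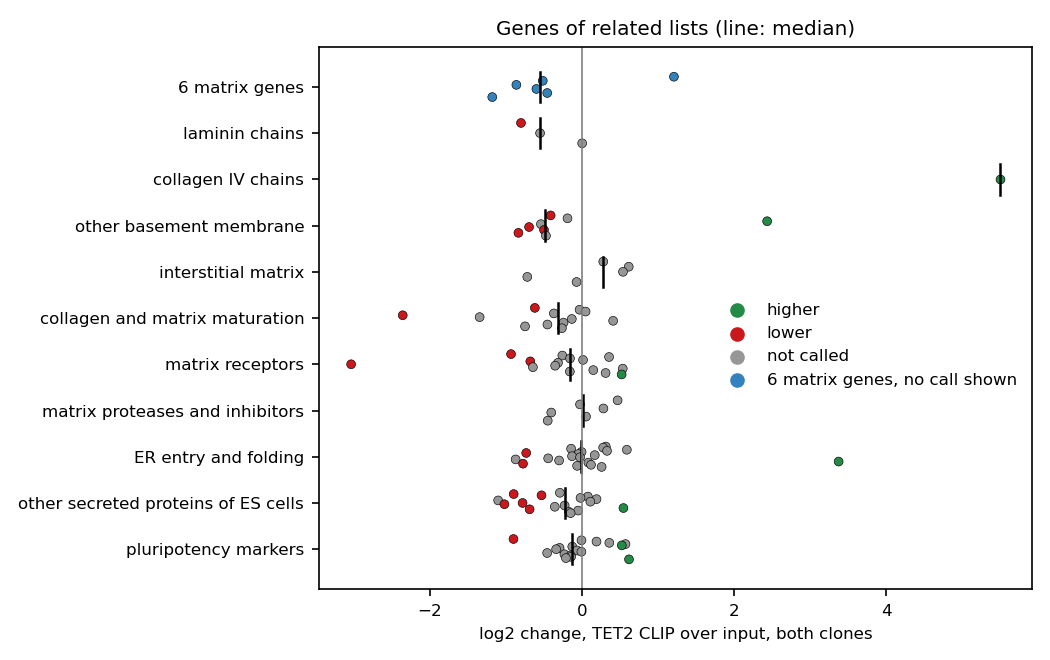
Log2 change in TET2 CLIP over input (both clones) for each tested gene of the related lists, members of the 6 left out of the other rows. Points are genes, red or green where edgeR called them lower or higher, grey where not, and blue for the 6 genes. Lines are medians, at -0.55 for laminin chains, -0.48 for other basement membrane and 5.49 for collagen IV chains (Col4a2 alone).

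In hm5C RIP the 6 genes had few reads, at 0.00211% and 0.00268% of all counts in the inputs and 0.00467% and 0.00219% in hm5C RIP. The libraries held 1564014 to 4889943 counts, and the row of Acsl6 alone took 55.2% and 60.6% of the counts of the hm5C RIP libraries. Only Lamc1 and Fn1 passed the filter on low counts. Fn1 had 68 and 78 reads in the inputs (16.5 and 16.6 CPM) and 41 and 26 reads in hm5C RIP (26.9 and 10.8 CPM). One hm5C RIP library was above both inputs and the other below. Lamc1 had 15 and 28 reads in the inputs (3.63 and 5.96 CPM) and 12 and 13 reads in hm5C RIP (7.86 and 5.39 CPM), with the groups overlapping. The log2 changes were 0.15 (SE 0.45, 95% interval -0.90 to 1.19, adjusted p = 0.823) for Fn1 and 0.43 (SE 0.50, -0.72 to 1.57, adjusted p = 0.519) for Lamc1. Neither was called by edgeR, by an unadjusted p under 0.05 or by DESeq2, while 33% of 2081 tested features were called higher and 18.9% lower. Of those 2081, 1174 had an unadjusted p under 0.05. The libraries of neither gene separated, whereas 42.3% of tested features lay above input without overlap and 35% below it. The sign of Fn1 turned to -0.69 without replicate 1 of hm5C RIP and to -0.22 and -0.26 without replicate 1 and replicate 2 of the input. The sign of Lamc1 turned to -0.21 without replicate 1 of the input. With Acsl6 left out and libraries scaled by total count alone, Fn1 (1.57), Lamc1 (1.89) and Sparc (2.00) were called higher, but the median of all tested features then stood at 1.99, above Fn1 and Lamc1 and level with Sparc.

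The other 4 genes stayed below the filter. Sparc had 6 and 8 reads in the RIP inputs and 4 and 5 in hm5C RIP. Lama1 had 6 and 13 reads in the inputs, with 6 and 0 in hm5C RIP, where 3 counts, the limit used here for a count of 0, correspond to 1.24 CPM for the library's 2100187 counts and its TMM factor. Lamb1 had 2 reads in each input and 3 and 1 in hm5C RIP, and Col4a1 had 1 and 2 in the inputs and 7 and 1 in hm5C RIP. These 4 were therefore not tested, although leaving out a row or a library could change that. Sparc was called higher with Acsl6 left out, as given above. Lama1 was called lower without replicate 1 of hm5C RIP, where the remaining hm5C RIP library holds 0 reads (edgeR adjusted p = 0.0193). Of the other basement membrane genes, Nid1, Hspg2 and Agrn were tested in RIP and not called (0.11, 0.63 and 0.85, with edgeR adjusted p = 0.917, 0.531 and 0.141). Among interstitial matrix genes, Col1a2 (3.56, adjusted p = 0.000362), Fbln1 (4.84, adjusted p = 0.000765) and Bgn (6.10, adjusted p = 0.000794) were higher in hm5C RIP, on averages of 33.8, 10.9 and 10.4 CPM there. All 3 reached the count filter in both hm5C RIP libraries and in neither input, where they had 25, 3 and 1 reads in all, so that their tests depended on the group in which they were high. Marker sums differed between the same libraries. The 11 other fibroblast markers, of which Col1a2 is one, summed to 3.63 and 3.83 CPM in the inputs and 40.0 and 39.4 CPM in hm5C RIP, and Col1a2 gave 50 of 61 and 84 of 95 of those hm5C RIP reads. The 15 other endoderm markers summed to 3.15 and 4.04 CPM in the inputs and 42.6 and 12.4 CPM in hm5C RIP, and the 19 pluripotency markers to 61.5 and 64.0 CPM and 32.1 and 50.6 CPM. Col3a1 had at most 2 reads in any of the 4 libraries, and Gata4 and Gata6 at most 2 and 5. In replicate 1 of hm5C RIP the other endoderm markers held 65 reads, of which Gata4 gave 2 and Gata6 1. Most of those 65 reads came from listed markers not named here. Sox7, another endoderm marker, named after its values were seen, had 0 reads in both inputs and 10 and 12 in hm5C RIP. It was called higher by edgeR, but it too reached the count filter in hm5C RIP alone. The part of such cells in these values was not tested.

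**Figure D5:**
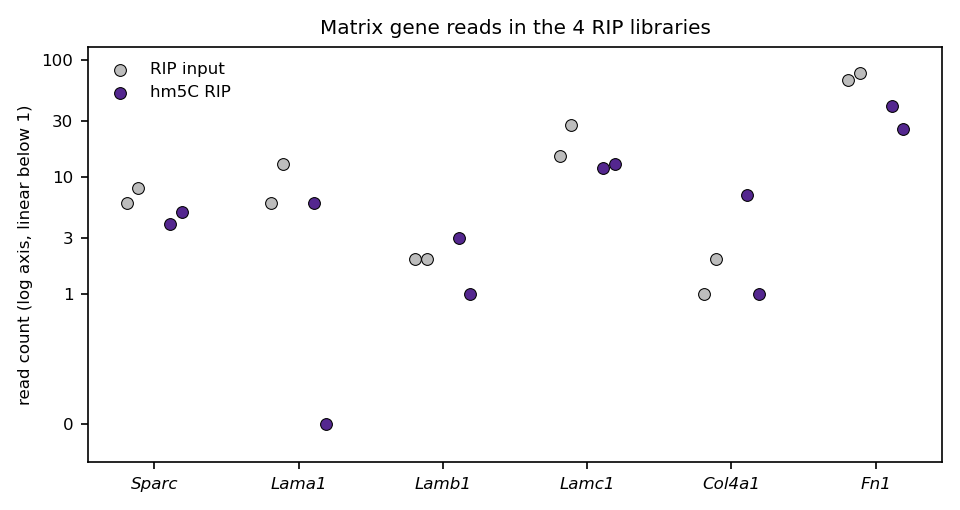
Read counts of the 6 matrix genes in the 2 RIP input (grey) and 2 hm5C RIP (purple) libraries, on a log axis that is linear below 1. Fn1 has 26 to 78 reads per library, Lamc1 12 to 28, and the other 4 genes at most 13.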

How the data were processed

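The deposited tables hold raw read counts per gene, with one column per library, per the file headers. The submitters' processing notes name build mm10 and the tools Bowtie2 2.2.6, STAR 2.5.3a, cutadapt and UMI-tools. The counting tool, annotation and use of strand are not given in the sources used here. Symbols came from the reference tables (53274 of 53900 features, 435 of which are tRNA genes). The RefSeq promoter table held 3 of the 6 genes and Col4a2.

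The 8 CLIP and 4 RIP libraries were fitted separately in R 4.3.3 with edgeR 4.0.16, using filterByExpr with a minimum count of 10, TMM factors, group means, a robust quasi-likelihood F-test and Benjamini-Hochberg adjustment over 10334 and 2081 features, with a threshold of 0.05. The SE is the absolute log2 change divided by the square root of F, and 95% intervals of log2 changes use the t distribution with the total degrees of freedom of that test. Sampling intervals are exact 95% Clopper-Pearson intervals. P-values rest on the spread between these replicates, but not on that of the gene alone, because edgeR pools spread over all tested features. For the matrix genes tested, the total degrees of freedom were 29.19 in CLIP and 7.91 in RIP. These exceed the 8 and 4 libraries fitted, so most of the spread behind each p-value is the pooled one. DESeq2 1.42.0, other scalings, no filter, a replicate block and leaving out each library were alternatives, and TMM over protein-coding genes alone and a replicate block shared by the clones were added after seeing the data.

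The 6 genes, the 191 listed genes and the tests were chosen with earlier results of these data known. Genes named were the 6, Col4a2, up to 4 genes per list with the highest mean CPM in input among those tested, and the 5 features most correlated with the 6; other listed genes were named after their values were seen. On simulated counts the procedure recovered 62% of 2-fold and 86% of 4-fold changes in CLIP over 9576 features, 82% and 94% between inputs over 9649, and 14% and 66% in RIP over 1772.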

Additional observations from a re-analysis of the deposited data

Results flagged for a closer look

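Both TET2 CLIP libraries of Lamb1 lay just above both inputs in clone 65 (log2 0.09, SE 0.47) and below them in clone 75, with a log2 difference of -1.38 that the interaction test did not call (edgeR adjusted p = 0.351). Scaled by total count alone, clone 65 too lay below input (log2 -0.32), beside a median of -0.45 over all features. The change of Col4a2 in TET2 CLIP differed between the clones by -2.17 (edgeR adjusted p = 4.44e-05), with a rise in both. The change of P4ha1 differed by -2.54 (edgeR adjusted p = 0.00588), from -1.09 in clone 65 to -3.62 in clone 75, and the call was lost without replicate 1 of clone 65's TET2 CLIP (log2 difference -2.26, adjusted p = 0.0566). The change of Apoe, which encodes a lipid-carrying apolipoprotein, differed by -1.26 (edgeR adjusted p = 0.00278), from 0.34 to -0.92, a call lost without replicate 2 of either input (-1.21, adjusted p = 0.0537, and -1.18, adjusted p = 0.0507) and with scaling by library size alone (-0.68, adjusted p = 0.112).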

How the results depend on the processing

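Over both clones, Sparc, Lama1, Lamb1, Lamc1 and Fn1 kept a value below input under each of 14 alternatives, with log2 ranges of -1.53 to -1.13, -1.22 to -0.81, -0.98 to -0.34, -0.81 to -0.41 and -0.87 to -0.46. The count of the 6 genes called lower was 4 under all but the lack of a count filter, which gave 5. Over the whole table, 602 features were called lower in the main fit and 1871 with no count filter. Nothing is read from the signs or counts of the 6 genes, because they were chosen on this contrast. DESeq2's size factors moved none of the 24 counts of calls over all features and the 6 genes by more than 1.5 times.

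Scaling by library size alone moved the median log2 change of all features to -0.15 over both clones, -0.45 in clone 65, 0.21 in clone 75, 0.60 for the difference between clones, -0.34 between inputs and 0.36 in RIP. Features called lower then went from 602 to 922 over both clones, from 297 to 1326 in clone 65 (with 4 of the 6 genes in place of 0) and from 406 to 264 in clone 75 (with 2 in place of 4). For the difference between clones, 638 were called higher and 104 lower in place of 34 and 229, and the sign turned for Sparc (0.15), Lama1 (0.20), Lamc1 (0.33) and Fn1 (0.33), all below that median. Between inputs, 242 were called higher and 1559 lower in place of 517 and 196, with 2 of the 6 genes lower (Lama1 and Fn1), and the sign turned for Sparc (-0.038), Lamb1 (-0.090) and Lamc1 (-0.28).

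With no count filter, features called lower were 1871 over both clones and 1126 in clone 65 (with 4 of the 6 genes), the difference gave 59 higher and 141 lower, 1 of the 6 genes (Fn1) was lower between inputs, and the sign turned for Lamc1 between inputs (-0.036) and for Lamc1 (-0.21) and Fn1 (-0.52) in RIP. Among the lists, lower calls over both clones then went from 1 to 2 for other laminin chains, from 2 to 6 for collagen and matrix maturation, from 3 to 7 for receptors, from 2 to 4 for ER entry and folding and from 5 to 9 for other secreted proteins, while the single higher calls of receptors (Sdc4) and other secreted proteins (Nodal) were lost. DESeq2's size factors and its test each gave 1 lower for maturation, and the test 0 higher for receptors, 4 higher for ER entry and folding in place of 1, and 3 lower for other secreted proteins. DESeq2's test called 189 features lower in clone 65 (with 1 of the 6, Fn1) and, between inputs, 264 higher and 64 lower (with 1 of the 6, Fn1). With the 4 inputs fitted alone, 1057 were higher and 651 lower, with 1 of the 6 genes each (Col4a1 and Fn1). Without the Acsl6 row and with scaling by library size, 1686 features were called higher in RIP and 88 lower, with 3 of the 6 genes higher. With TMM over protein-coding genes alone, chosen after seeing the data, higher and lower calls were 325 and 321 over both clones, 271 and 102 in clone 65, 176 and 250 in clone 75 and 9 and 73 for the difference, on fewer tested features, with 1 lower each for maturation and ER entry and folding, 4 higher for the latter and 3 lower for other secreted proteins, and 1 of the 6 genes (Fn1) was lower between inputs.

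With the replicate number as a block, clone 75 gave 382 higher and 264 lower and the difference 13 higher; 4 of the 6 genes stayed lower over both clones and 3 in place of 4 in clone 75 (Lamc1 -0.58, adjusted p = 0.0724), while maturation and ER entry and folding each gave 1 lower in place of 2. Same-numbered libraries did not deviate together (correlations of -0.01 in clone 65, 0.02 in clone 75 and 0.03 in RIP), so the numbers may pair nothing. This block was nested in the clone. Between inputs a block for a number shared by the clones, added after seeing the data, gave 336 higher and 72 lower, with none of the 6 genes.

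Leaving out 1 library at a time gave 453 to 1081 features lower over both clones, with 0 to 1 of the 6 genes higher (Col4a1, without replicate 1 of either TET2 CLIP group). It gave 558 to 985 higher and 178 to 617 lower in clone 65, with 0 to 1 and 0 to 4 of the 6 genes, and 276 to 645 and 206 to 757 in clone 75, with 1 to 5 of the 6 lower (1 without replicate 1 of clone 75's TET2 CLIP, 2 without replicate 2 of its input). The 4 of clone 65 came without replicate 1 of either TET2 CLIP group. The difference between clones had 4 to 101 higher and 83 to 271 lower, and ran from -0.72 to 0.028 for Sparc and from -0.62 to 0.082 for Lama1, turning sign without replicate 1 of clone 65's TET2 CLIP, and from -2.60 to 0.47 for Col4a1, turning without its replicate 2. Between inputs, 128 to 693 were higher and 10 to 426 lower, with 0 to 1 of the 6 genes in each direction (Col4a1 and Fn1, without any 1 TET2 CLIP library), and Lamb1 ran from 0.47 to -0.34, turning sign without replicate 2 of clone 75's input. RIP gave 336 to 745 higher and 301 to 640 lower, with 0 to 1 of the 6 genes lower (Lama1, without replicate 1 of hm5C RIP, which leaves 0 reads), and log2 changes of -0.21 to 0.64 for Lamc1, whose sign turned without replicate 1 of the input, and of -0.69 to 0.64 for Fn1, whose sign turned without either input or replicate 1 of hm5C RIP. The cause of these shifts was not tested. Where 1 library is left in a group, it is assumed to vary like the others. Depth limits Lamb1 and Col4a1, with 1 to 9 reads in a TET2 CLIP library, and in RIP all but Fn1 and Lamc1.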
